A study of Mus musculus with 10 samples.

Results

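The nuclear genes for subunits of the respiratory chain and of ATP synthase were followed by RNA sequencing of jejunum, a segment of the small bowel that absorbs nutrients. Members were chosen by gene symbol (the Nduf, Sdh, Uqcr, Cox4 to Cox8 and Atp5 families). They had to be protein-coding, to carry no pseudogene name and to reach at least 10 counts in every one of 10 libraries. The pattern met 97 symbols, of which 12 were not protein-coding or were named as pseudogenes and 4 fell short of the count minimum. The 81 genes left, of 55414 gene identifiers in all, were 35 of complex I, 4 of complex II, 8 of complex III, 17 of complex IV and 17 of complex V. Ndufa4 and Ndufa4l2 were placed with complex IV, where the Ndufa4 protein sits. The 4 genes that missed the count minimum were Cox7b2, Cox8b, Cox8c and a second identifier named Atp5o, and Cox8b had 0 to 29 counts per library. Of the members, 78 had at least 100 counts in every library, and all 81 passed the filter on low counts used for testing.

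The libraries came from male C57BL/6J mice with both Retsat alleles floxed, in 2 groups of 5. RetSat ko mice carried the villin-Cre-ERT2 transgene and control mice did not. Both groups received tamoxifen over 5 days, followed by 14 weeks on a high-fat diet in which fat supplied 60% of the calories. The villin promoter drives the tamoxifen-activated Cre recombinase in intestinal epithelium, so cells outside the epithelium keep the Retsat gene. Retsat encodes retinol saturase, which uses vitamin A as a substrate. Loss of Retsat and presence of the active recombinase go together here and cannot be told apart. Nothing in the labels states that each library is a separate animal, so the p-values measure the spread between these libraries, which may be technical in part.

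The respiratory chain is a set of protein complexes in the inner membrane of mitochondria. Complex I takes electrons from NADH, and complex II, which is also the succinate dehydrogenase of the citric acid cycle, takes them from succinate. Complex III passes them from ubiquinone to cytochrome c, and complex IV hands them to oxygen. Complexes I, III and IV pump protons, and complex V, the ATP synthase, uses the returning protons to make ATP. Most subunits are encoded in the nucleus and imported, and a few central ones are encoded in mitochondrial DNA. Absorptive enterocytes hold many mitochondria and spend much ATP on the uptake and packaging of nutrients.

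Total counts per library lay between 102844680 and 128730695. Retsat was at 19.6 ± 7.76 CPM in RetSat ko and 440.6 ± 101.1 CPM in control (SD, n = 5 each), where CPM are counts scaled to 1000000 per library after TMM normalization. The groups did not overlap (15.4 to 33.4 CPM in RetSat ko, 340.2 to 576.2 CPM in control, two-sided exact permutation p = 0.00794, the smallest that 5 against 5 allows). RetSat ko 1 and control 4 stood apart from the others for the subunit genes. RetSat ko 1 was the highest of the 10 libraries for 70 of the 81 members, and control 4 was the lowest for 62 of 81.

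None of the 81 members differed between RetSat ko and control at the adjusted threshold of 0.05 (edgeR, quasi-likelihood), and the smallest adjusted p among them was 0.342. Over all tested genes, 6 of 18654 passed (0.0322%). At an unadjusted p under 0.05, 6 members were higher in RetSat ko (7.41%) and 0 were lower, against 6.79% and 5.45% of all tested genes. DESeq2 also called 0 members (0.659% of all tested genes), with 5 at an unadjusted p under 0.05, all higher (6.88% of all tested genes). The 6 were Ndufa5, Ndufb2 and Ndufs7 of complex I, Uqcr11 of complex III and Atp5e and Atp5l of complex V. That count was 0 without control 4 (5.49% of all tested genes were higher) or without RetSat ko 2 (4.66%). It was 1 without RetSat ko 1 (11.4%) and 2 without control 2 (6.35%) or without RetSat ko 3 (5.52%). Without control 3 it was 3 (5.11%), and without RetSat ko 4 it was 20 (6.12%). Without RetSat ko 1, edgeR called 4.45% of all tested genes and again 0 members, and at an unadjusted p under 0.05 Ndufs7 was higher and Sdha lower. In bulk tissue, fewer cells of a type and less RNA per cell cannot be told apart.

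The log2 fold changes of the members were small and lay mostly on the positive side. They were positive for 71 members (87.7%) and negative for 10, with a median of 0.097 and a range of -0.13 to 0.25. Over all tested genes 53.9% were positive and the median was 0.02, while among the 3717 genes of at least 50 CPM 30.6% were positive and the median was -0.08. In 1 member (1.23%) all RetSat ko libraries lay above all control libraries, against 1.58% of tested genes, and in 0 all lay below, against 0.729%. The median was 0.061 without control 4 and 0.059 without RetSat ko 1, with 66 and 61 members positive. Without the 4 libraries richest in pancreatic acinar transcripts (RetSat ko 1 and 2, control 4 and 5) it was 0.006, with 45 members positive and 0 at an unadjusted p under 0.05.

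**Figure D1:**
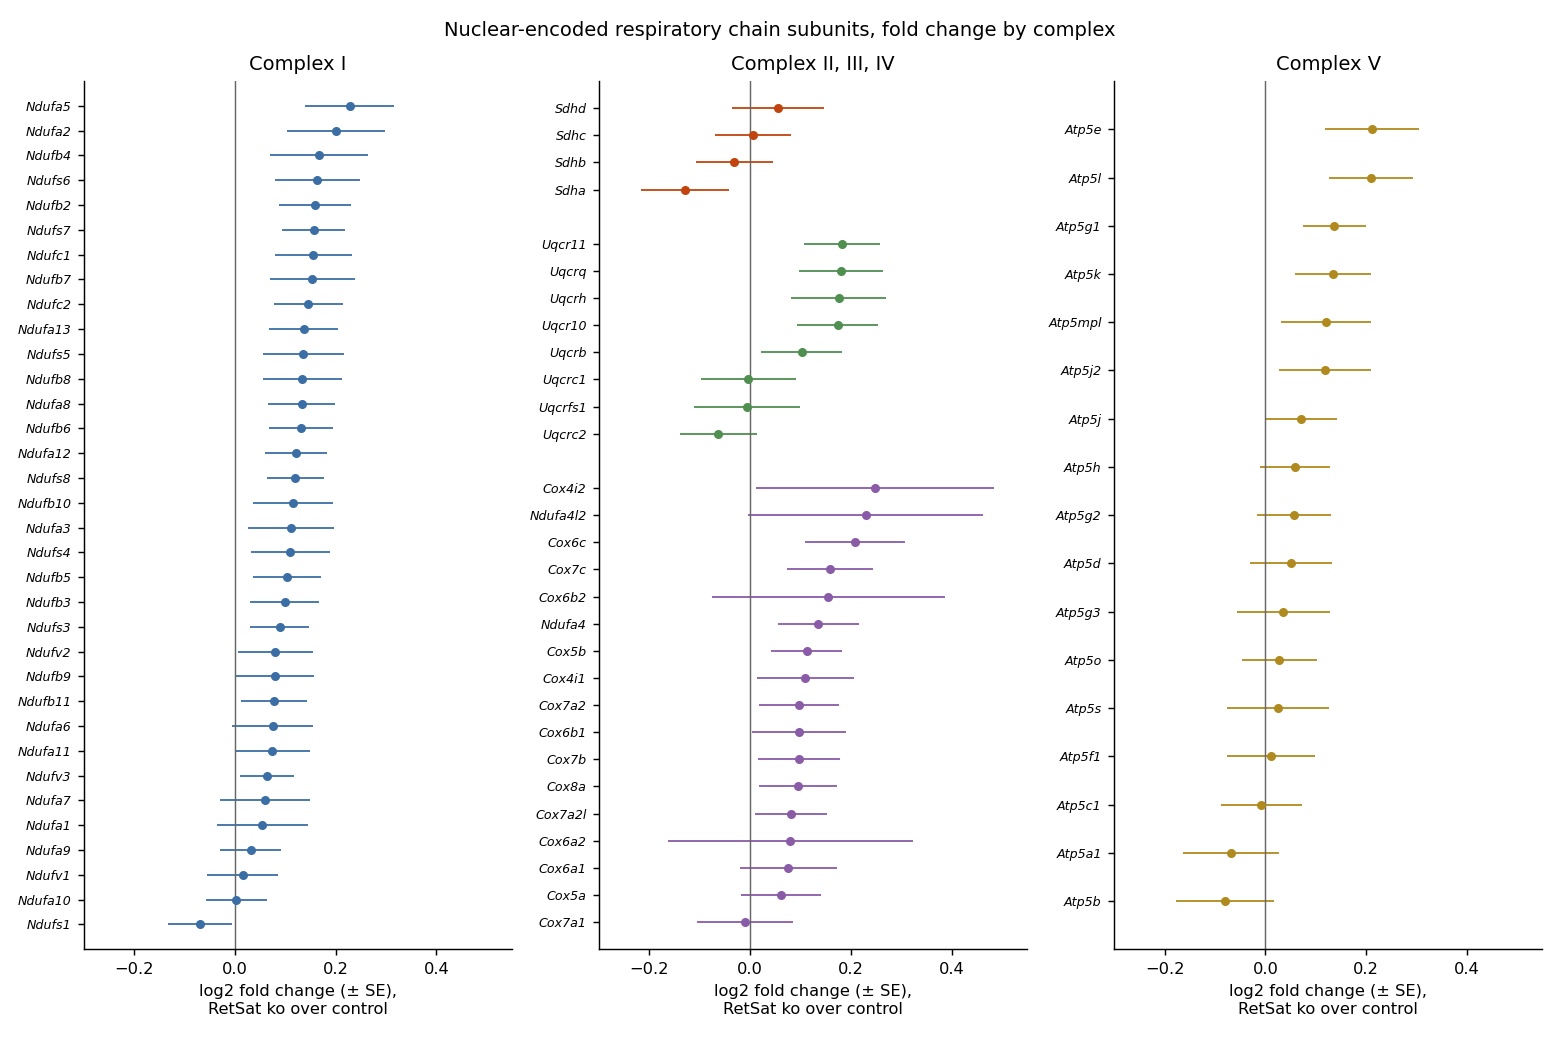
Log2 fold change of 80 of the 81 subunit genes, RetSat ko over control, ordered within each complex. Bars are the SE, derived from the edgeR F statistic. Points lie right of 0 for every plotted gene of complex I but Ndufs1 and for 16 of 17 of complex IV, and on both sides of 0 for complex II.

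The promoters of 66 of the 81 members could be matched in the RefSeq table (mouse build GRCm38.p6, 250 bases before to 50 after the annotated start). They were searched on both strands for the core of the NRF1 site, GCATGCG, an ETS site of the kind bound by GABPA, CCGGAAG, and a YY1 site, AAGATGG. NRF1, GABPA and YY1 are transcription factors known for driving nuclear genes of mitochondrial proteins. The NRF1 letters are nearly their own reverse complement, so matches on both strands overlap, and an ETS match can share its AAG with a YY1 match. NRF1 letters were present in 16.7% of member promoters against 4.01% of all 27025 genes in the table. The ETS letters were present in 24.2% against 9.93% and the YY1 letters in 16.7% against 7.28%. At least 1 of the 3 was present in 31 of 66 member promoters (47.0%), against 19.3% of all genes and 22.6% of protein-coding genes. Of the 31 members with a motif 29 had a positive log2 fold change, with a median of 0.112, and of the 35 without one 30 were positive, with a median of 0.081. A match describes letters in this window and is not a measured site.

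Promoters of 4 members are shown from 150 bases before to 30 after the annotated start, 5′ to 3′ in the direction of the gene, with matched letters in capitals. Positions count from the start, which is base 1, and bases before it are negative. Uqcr11 and Atp5e were among the 6 members with the smallest p, and Atp5k and Sdhb hold the same pair of motifs as Uqcr11 but belong to complexes V and II. In Uqcr11 the capitals mark an ETS match that begins at -66 and overlapping NRF1 matches from -5. In Atp5e they mark an ETS match on the opposite strand from -102. In Atp5k they mark overlapping NRF1 matches from -49 and an ETS match on the opposite strand from 13, and in Sdhb an NRF1 match from -54 and an ETS match from 7. The windows are chr10:80406792-80406971 (minus strand) for Uqcr11, chr2:174464072-174464251 (minus) for Atp5e, chr5:108434370-108434549 (minus) for Atp5k and chr4:140961121-140961300 (plus) for Sdhb, all in GRCm38.p6.
Uqcr11: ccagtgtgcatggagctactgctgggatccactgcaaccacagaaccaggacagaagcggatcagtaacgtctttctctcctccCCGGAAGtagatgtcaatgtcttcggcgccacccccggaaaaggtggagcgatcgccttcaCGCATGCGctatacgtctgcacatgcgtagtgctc
Atp5e: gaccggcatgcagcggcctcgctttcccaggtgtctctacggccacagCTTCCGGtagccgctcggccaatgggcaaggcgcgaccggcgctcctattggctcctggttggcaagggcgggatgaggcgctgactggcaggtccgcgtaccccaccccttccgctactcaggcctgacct
Atp5k: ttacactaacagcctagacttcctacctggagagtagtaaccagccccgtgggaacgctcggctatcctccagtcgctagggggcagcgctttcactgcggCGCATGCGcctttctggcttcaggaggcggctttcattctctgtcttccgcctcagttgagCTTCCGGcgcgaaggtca
Sdhb: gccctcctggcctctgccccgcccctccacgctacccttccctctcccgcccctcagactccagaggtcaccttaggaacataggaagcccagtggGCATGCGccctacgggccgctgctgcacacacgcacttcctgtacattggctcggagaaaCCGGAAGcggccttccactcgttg

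In complex I nearly all genes had slightly higher means in RetSat ko. Its 35 members had a median log2 fold change of 0.112, and 34 were positive, Ndufs1 being the exception. The 28 accessory subunits, which surround and stabilise the enzyme, were all positive (median 0.118), as were 6 of the 7 core subunits (median 0.081), which hold the catalytic path. No member of complex I had groups that did not overlap. Without the acinar-rich libraries 20 of the 35 were positive (median 0.014).

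Ndufa5, an accessory subunit (ENSMUSG00000023089.13, chromosome 6, 24518665 to 24528012, minus strand, GRCm39), had the smallest p of all members. It was at 125.9, 122.6, 112.4, 95.8 and 103.9 CPM in RetSat ko 1 to 5 and at 106.4, 92.0, 100.2, 84.5 and 95.6 CPM in control 1 to 5. RetSat ko 1 to 3 lay above every control library, and RetSat ko 4 and 5 lay inside the control range. This gave a log2 fold change of 0.23 ± 0.0882 (SE, n = 5 each), with an edgeR adjusted p of 0.342. Without the acinar-rich libraries, with 3 against 3 left, it was 0.065 (unadjusted p = 0.479 in edgeR).

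Ndufs7, a core subunit that holds the last iron-sulfur centre before ubiquinone (ENSMUSG00000020153.15, chromosome 10, 80084955 to 80092628, plus strand, GRCm39), had the next smallest p of complex I. Its values were 155.7, 149.9, 156.8, 140.8 and 146.0 CPM in RetSat ko 1 to 5, against 140.8, 139.9, 132.1, 121.7 and 137.7 CPM in control 1 to 5. The groups met at 140.8 CPM, where the lowest RetSat ko library and the highest control library had the same rounded value. The log2 fold change was 0.16 ± 0.0624 (edgeR adjusted p = 0.355).

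Ndufb2, an accessory subunit of the membrane arm, had 48.7, 44.4, 43.4, 39.4 and 41.0 CPM in RetSat ko 1 to 5 and 39.7, 37.7, 38.9, 35.4 and 42.4 CPM in control 1 to 5. The groups overlapped through RetSat ko 4 and 5 and control 1 and 5. The core subunit Ndufs8 averaged 137.7 ± 6.15 CPM in RetSat ko and 126.7 ± 4.33 CPM in control (SD, n = 5 each), which is a log2 fold change of 0.12 ± 0.0564 (edgeR adjusted p = 0.415).

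Ndufa1, an accessory subunit with a high level per length, averaged 759.5 TPM over all libraries, where TPM are length-corrected transcripts per 1000000. Its log2 fold change was 0.05 ± 0.0899 (edgeR adjusted p = 0.834). Ndufs1, the largest subunit of complex I and a holder of iron-sulfur centres, had 255.5, 233.6, 218.5, 240.6 and 238.8 CPM in RetSat ko 1 to 5, against 250.8, 243.7, 260.9, 251.7 and 238.5 CPM in control 1 to 5. Both ranges overlapped and the log2 fold change was -0.07 ± 0.0636 (edgeR adjusted p = 0.681).

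Complex II had members on both sides of 0, with 2 of 4 positive and a median of -0.013. Without RetSat ko 1, 0 of the 4 were positive (median -0.063), and without control 4, 1 was (median -0.035). Its summed level was 2428.6 ± 216.8 CPM in RetSat ko and 2502.6 ± 53.8 CPM in control (SD, n = 5 each). Sdha, the flavoprotein that oxidises succinate (ENSMUSG00000021577.15, chromosome 13, 74470373 to 74498399, minus strand, GRCm39), had 1100.0, 957.1, 886.8, 937.2 and 906.1 CPM in RetSat ko 1 to 5. In control 1 to 5 it had 1048.1, 987.6, 1077.3, 1096.9 and 1023.9 CPM. RetSat ko 2 to 5 lay below every control library and RetSat ko 1 lay above them all. Its log2 fold change was -0.13 ± 0.0875, the lowest of the 81 (edgeR adjusted p = 0.57). Leaving out RetSat ko 1 gave -0.183 ± 0.0655 (edgeR unadjusted p = 0.0176, adjusted p = 0.121).

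Sdhb, the iron-sulfur subunit, had 482.6, 402.0, 415.5, 393.2 and 395.4 CPM in RetSat ko 1 to 5 and 437.2, 418.3, 435.6, 409.2 and 434.5 CPM in control 1 to 5. Here too RetSat ko 1 was above all control libraries, while 3 of the other RetSat ko libraries lay below them. The log2 fold change was -0.03 ± 0.0767 (edgeR adjusted p = 0.893), or -0.088 without RetSat ko 1. The membrane anchors Sdhc and Sdhd had log2 fold changes of 0.01 ± 0.075 and 0.05 ± 0.0919 (edgeR adjusted p = 0.983 and 0.836). Sdhd was at 726.2, 618.3, 581.5, 551.3 and 569.4 CPM in RetSat ko 1 to 5, against 608.5, 601.2, 588.6, 529.1 and 605.6 CPM in control 1 to 5. It ranged more widely in RetSat ko, and its lowest value was that of control 4.

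Complex III split between its small and its large subunits. The 5 small accessory subunits Uqcr11, Uqcrq, Uqcrh, Uqcr10 and Uqcrb had log2 fold changes of 0.18, 0.18, 0.18, 0.17 and 0.10. The large matrix-facing subunits Uqcrc1 and Uqcrc2 and the Rieske iron-sulfur protein Uqcrfs1 had -0.00, -0.06 and -0.01. Uqcr11 (ENSMUSG00000020163.13, chromosome 10, 80238831 to 80242664, minus strand, GRCm39), whose promoter is shown above, had 185.5, 176.2, 163.5, 150.4 and 156.9 CPM in RetSat ko 1 to 5. In control 1 to 5 it had 151.8, 144.5, 149.5, 131.5 and 156.6 CPM. RetSat ko 1, 2, 3 and 5 lay above every control library. In edgeR the fold change was 0.18 ± 0.075 on the log2 scale (adjusted p = 0.367).

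Uqcrq averaged 352.1 ± 29.3 CPM in RetSat ko and 310.7 ± 24.8 CPM in control (SD, n = 5 each), with overlapping ranges. Uqcrfs1, at 1030.9 TPM the most abundant member of complex III per length, had 669.8, 548.5, 509.8, 465.5 and 462.7 CPM in RetSat ko 1 to 5, against 550.6, 538.2, 507.3, 515.5 and 555.1 CPM in control 1 to 5. RetSat ko 1 was above and RetSat ko 4 and 5 were below all control libraries, and the log2 fold change was -0.01 ± 0.105 (edgeR adjusted p = 0.988), or -0.102 without RetSat ko 1. Reads of Uqcrb may be missing, since 62.8% of its transcript is at least 95% identical to other genes. Reads that fit several places were not counted.

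Complex IV was positive in 16 of 17 members (median 0.097), and none reached an unadjusted p of 0.05 in edgeR. All its nuclear subunits are accessory or regulatory, the catalytic ones being mitochondrial. Cox6c had the smallest p of them. It was at 414.0, 372.8, 351.2, 303.1 and 300.3 CPM in RetSat ko 1 to 5 and at 328.3, 287.8, 314.5, 270.7 and 306.3 CPM in control 1 to 5. RetSat ko 1 to 3 exceeded every control library, while RetSat ko 4 and 5 lay among them. Its log2 fold change was 0.21 ± 0.0999 (edgeR adjusted p = 0.424). Cox7c had 0.16 ± 0.0847 and Cox5b 0.11 ± 0.0707 (edgeR adjusted p = 0.468 and 0.535), and 58.3% of the Cox7c transcript has near-identical copies in other genes.

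The most abundant transcripts of the whole set per length were those of Cox6a1 and Cox6b1, at 2195.2 and 2190.5 TPM, followed by Atp5a1, Atp5b, Cox4i1 and Cox8a. The median over the 81 members was 364.3 TPM, with 9 at 1000 TPM or more and 8 below 20 TPM. TPM divides by all annotated exon bases, 708 for Cox6b1 and 4237 for Atp5b, so these ranks and counts depend on the annotation. In CPM, Atp5b was above Cox6b1 (2918.3 against 606.9 in RetSat ko). Cox4i1, the general form of subunit 4, had 1211.5, 1157.8, 1142.3, 989.0 and 1023.6 CPM in RetSat ko 1 to 5. Its control values were 1068.6, 1028.4, 1021.8, 890.8 and 1110.0 CPM in control 1 to 5. RetSat ko 1 to 3 were above all control libraries and the others within their range, with a log2 fold change of 0.11 ± 0.0958 (edgeR adjusted p = 0.666). Cox6a1 and Cox6b1 had log2 fold changes of 0.08 ± 0.0966 and 0.10 ± 0.0941.

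Complex V was positive in 14 of 17 members (median 0.056), or in 8 without the acinar-rich libraries (median -0.008). With all libraries, all 7 accessory members were positive (median 0.118), and 7 of the 10 core members were (median 0.032). Atp5e, the epsilon subunit of the central stalk (ENSMUSG00000016252.8, chromosome 2, 174302865 to 174305898, minus strand, GRCm39), had 313.5, 278.8, 276.2, 231.3 and 244.3 CPM in RetSat ko 1 to 5. In control 1 to 5 it had 241.8, 227.5, 233.3, 203.7 and 254.4 CPM. RetSat ko 1 to 3 were above every control library and RetSat ko 4 and 5 were not. For Atp5e this was a log2 fold change of 0.21 ± 0.0932 (edgeR adjusted p = 0.394).

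Atp5l, subunit g of the membrane part, had 20.7, 19.8, 19.5, 16.0 and 18.4 CPM in RetSat ko 1 to 5 and 16.7, 16.9, 15.9, 14.4 and 17.7 CPM in control 1 to 5. RetSat ko 4 was the only RetSat ko library within the control range, and the log2 fold change was 0.21 ± 0.0835 (edgeR adjusted p = 0.355). This value is uncertain, because 86.8% of the transcript has near-identical copies in 11 other genes and reads that fit several places were not counted. Atp5g1, one of the genes for the c ring that turns with the passing protons (ENSMUSG00000006057.16, chromosome 11, 95959678 to 95966496, minus strand, GRCm39), was the member whose groups did not overlap. It had 232.4, 224.2, 222.5, 213.4 and 218.2 CPM in RetSat ko 1 to 5, against 212.4, 201.7, 205.3, 181.7 and 209.0 CPM in control 1 to 5. RetSat ko 4, the lowest of its group, was just above control 1, the highest of the controls. Its log2 fold change was 0.14 ± 0.0632 (edgeR adjusted p = 0.41), and 18.5% of its transcript has near-identical copies in 20 other genes.

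The other genes of the c ring, Atp5g2 and Atp5g3, had log2 fold changes of 0.06 ± 0.0736 and 0.04 ± 0.0922, and Atp5g3 was the most abundant of the 3 at 1428.5 TPM. The catalytic subunits Atp5b and Atp5a1 had negative values with TMM factors and positive ones with raw library totals (0.016 and 0.027). Atp5b, the beta subunit (ENSMUSG00000025393.13, chromosome 10, 127919142 to 127926260, plus strand, GRCm39), had 3194.7, 2768.1, 2720.3, 2976.2 and 2932.0 CPM in RetSat ko 1 to 5. In control 1 to 5 it had 3059.7, 2966.6, 3190.3, 3083.3 and 3119.3 CPM. RetSat ko 2, 3 and 5 lay below every control library and RetSat ko 1 lay above them. The log2 fold change was -0.08 ± 0.0971 (edgeR adjusted p = 0.766), and that of Atp5a1, the alpha subunit, was -0.07 ± 0.0949 (edgeR adjusted p = 0.798). Leaving out RetSat ko 1 gave -0.114 and -0.108 (edgeR adjusted p = 0.405 and 0.409). Atp5k, whose promoter is shown above, averaged 196.0 ± 14.8 CPM in RetSat ko and 178.6 ± 13.7 CPM in control (SD, n = 5 each), which is a log2 fold change of 0.13 ± 0.0758 (edgeR adjusted p = 0.487).

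**Figure D2:**
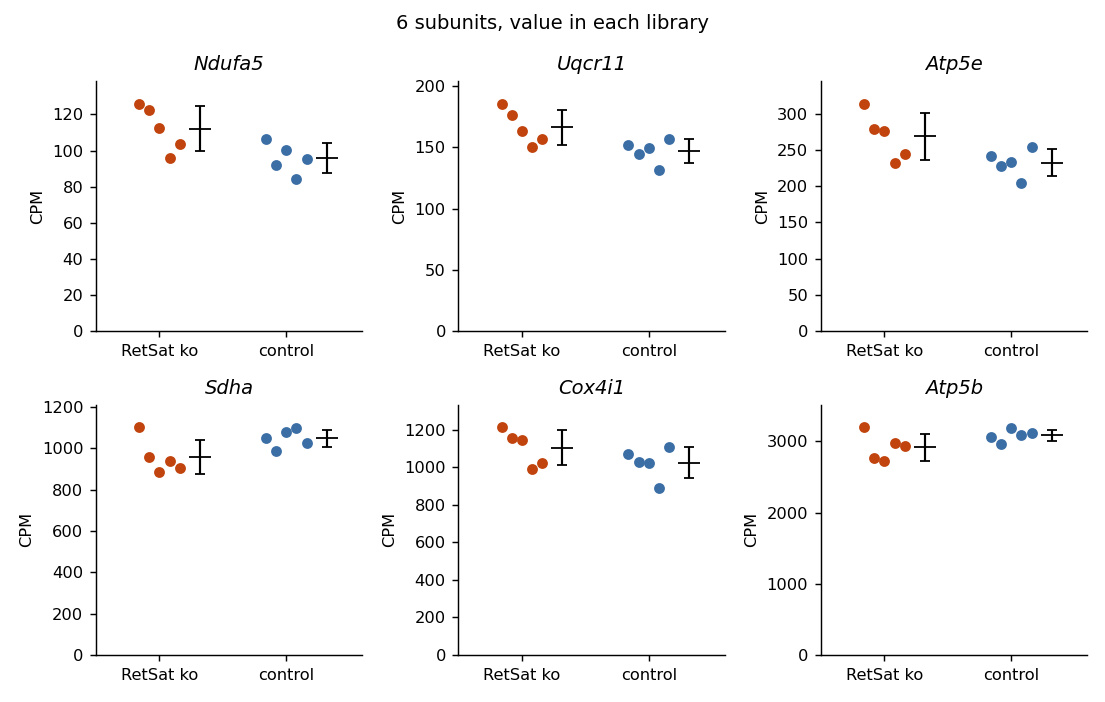
CPM of 6 subunit genes in each library, from replicate 1 at the left to replicate 5 at the right of each group, with the mean and SD as a black bar. Ndufa5, Uqcr11, Atp5e and Cox4i1 have higher means in RetSat ko and Sdha and Atp5b lower ones, and the groups overlap in all 6.

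Fold changes were then set against the size of the gene. Of the 50 members with a coding length under 500 bases, 49 were positive, with a median log2 fold change of 0.121. Of the 20 between 500 and 1000 bases 17 were positive (median 0.085), and of the 10 between 1000 and 2000 bases 5 were. Ndufs1 was the 1 member of 2000 bases or more. Other protein-coding genes were ordered in the same way. Their medians were 0.127 under 500 bases, 0.056 between 500 and 1000, 0.001 between 1000 and 2000 and -0.04 at 2000 or more. Among other genes of at least 50 CPM, a level that 71 of the 81 members reach, these medians were 0.073, -0.025, -0.099 and -0.154. Short genes under 500 bases were positive in 98.0% of members, 76.7% of other genes and 70.1% of other genes of at least 50 CPM. With symbols starting Rpl, Rps or Mrp (ribosomal protein families) removed, the last share was 64.4% (median 0.048). Without RetSat ko 1 that reduced set was positive in 51.7% (median 0.008). Without RetSat ko 1, 45 of the 50 short members were positive with a median of 0.092, against 0.131 for other genes under 500 bases and 0.043 for those of at least 50 CPM, and 2 of the 10 members between 1000 and 2000 bases were positive. Accessory and regulatory subunits, which are mostly short, were positive in 56 of 59 (median 0.113), and core subunits in 15 of 22 (median 0.027). With RetSat ko 1 left out, 53 of 59 accessory or regulatory subunits (median 0.078) and 8 of 22 core subunits (median -0.019) were positive. With control 4 left out these were 56 of 59 and 10 of 22. Without the acinar-rich libraries they were 39 of 59 (median 0.024) and 6 of 22 (median -0.063). With all libraries and under 500 bases, 44 of 45 accessory or regulatory members (median 0.122) and 5 of 5 core members (median 0.056) were positive. Between 500 and 1000 bases these were 9 of 9 (median 0.11) and 8 of 11 (median 0.028), and from 1000 bases 3 of 5 (median 0.003) and 2 of 6 (median -0.069). The separate parts of length and role were not tested.

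**Figure D3:**
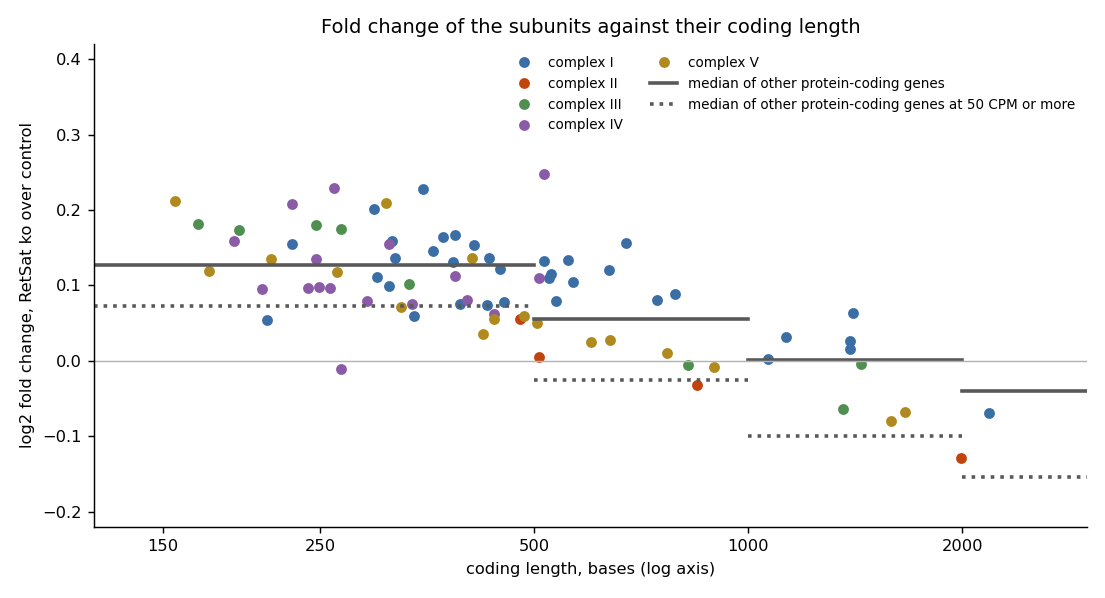
Log2 fold change of the 81 subunit genes, RetSat ko over control, against their coding length on a log axis, coloured by complex. Horizontal lines give the median of other protein-coding genes in each length class, for all of them (solid, 0.127 to -0.04) and for those of at least 50 CPM (dotted, 0.073 to -0.154), and points and lines both lie lower at greater length.

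The libraries differed in their overall level of the subunits. Each member's log2 CPM was set against its mean over the 10 libraries, and the median of these differences was taken per library. It was 0.203, 0.068, 0.048, -0.067 and -0.024 in RetSat ko 1 to 5, and 0.026, -0.054, -0.026, -0.186 and 0.011 in control 1 to 5. RetSat ko 1 was the highest and control 4 the lowest, while RetSat ko 4 and 5 lay within the control range. The summed level of the 81 members was 27136.6 ± 2012.4 CPM in RetSat ko and 26487.0 ± 1106.0 CPM in control (SD, n = 5 each), and the ranges overlapped.

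Shares of the raw totals gave another order of the libraries. The members took 2.72, 2.94, 2.81, 2.75 and 2.79% of all counts in RetSat ko 1 to 5 and 2.6, 2.64, 2.44, 2.47 and 2.65% in control 1 to 5. On this scale the groups did not overlap, and RetSat ko 1 was the lowest of its group instead of the highest. TMM factors, which correct for the share taken by abundant genes, were 0.889 in RetSat ko 1, 1.06 to 1.08 in RetSat ko 2 to 5 and 0.903 to 1.02 in control. With raw totals in place of these factors, the median log2 fold change of all tested genes was 0.12 and that of the members 0.193. Relative to the median of all tested genes, that of the members was 0.073 higher with raw totals and 0.077 higher with TMM factors. This difference was 0.026 without RetSat ko 1, 0.035 without control 4, 0.021 with sample weights in limma-voom and -0.018 without the acinar-rich libraries.

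**Figure D4:**
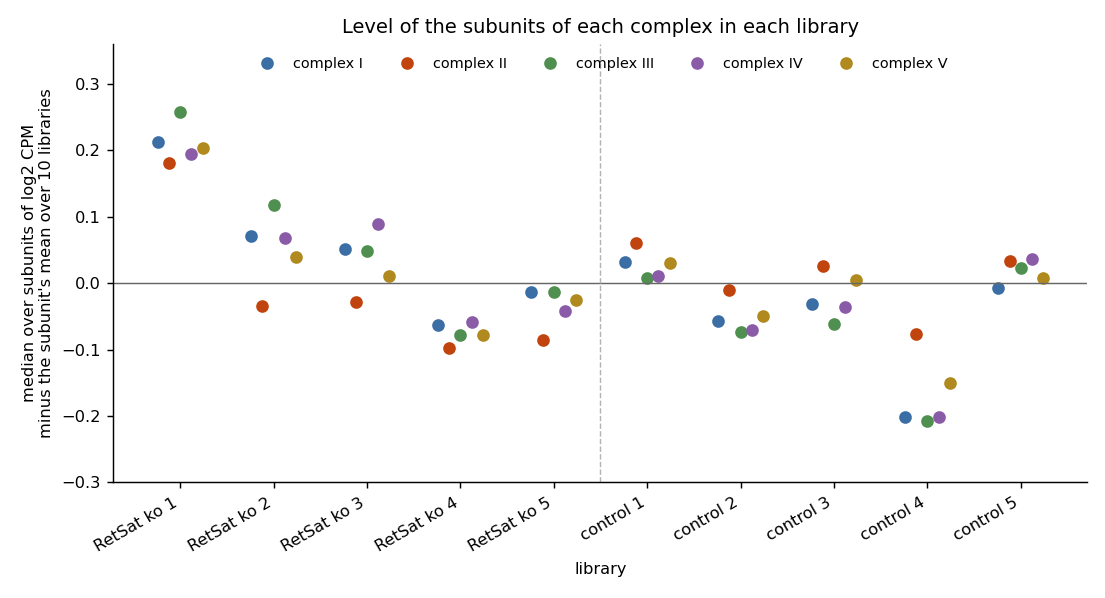
Median, over the subunits of each complex, of log2 CPM minus the subunit's mean over the 10 libraries, for each library, with RetSat ko to the left of the dashed line. All complexes are highest in RetSat ko 1 (0.181 to 0.258), and complexes I, III, IV and V are lowest in control 4 (-0.207 to -0.151).

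Tissue-restricted forms of complex IV subunits, known from muscle, lung, testis or hypoxic cells, were compared with their general forms in 5 pairs. Cox4i2 reached 0.0647% of Cox4i1 in RetSat ko and 0.0594% in control, per length. On the same scale Cox6a2 was at 0.212% of Cox6a1 in RetSat ko and 0.21% in control. Cox6b2 was at 0.325% of Cox6b1 in RetSat ko and 0.315% in control, and Ndufa4l2 at 0.179% of Ndufa4 in RetSat ko and 0.17% in control. Cox7a1, the form typical of heart and skeletal muscle, was an exception at 59.8% of Cox7a2 in RetSat ko and 64.3% in control. Its log2 ratio to Cox7a2 was -0.73, -0.73, -0.66, -0.78 and -0.81 in RetSat ko 1 to 5, and -0.71, -0.52, -0.49, -0.79 and -0.68 in control 1 to 5. The groups overlapped, and the difference of -0.104 had a two-sided exact permutation p of 0.167, or 0.833 adjusted over the 5 pairs. The other 4 pairs had adjusted exact permutation p of 0.952. Of these, Cox4i2 had 27 to 62 and Ndufa4l2 34 to 80 counts per library, so their ratios rest on few reads.

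Cox7a1 (ENSMUSG00000074218.4, chromosome 7, 29883569 to 29885503, plus strand, GRCm39) was at 123.6, 111.2, 110.3, 94.8 and 98.8 CPM in RetSat ko 1 to 5 and at 107.9, 112.0, 123.1, 88.7 and 110.8 CPM in control 1 to 5. It was the 1 member of complex IV with a negative log2 fold change (-0.01 ± 0.0954, edgeR adjusted p = 0.975). The summed level of 7 smooth muscle markers was 405.4 to 734.9 CPM in RetSat ko and 161.7 to 581.0 CPM in control, with the lowest value in control 3, where Cox7a1 was highest among the controls. Of 8 striated muscle markers, Acta1, Ckm and Myl1 were tested (2 of 3 positive, median 0.325), and Myh1, Myh2, Myh4, Myh6 and Tnnt3 had at most 9 counts in any library. The 8 summed to 5.42 to 13.0 CPM in RetSat ko and 7.17 to 15.6 CPM in control, with the highest sum in control 3. Their median log2 CPM, each set against its mean over the libraries, was lowest in control 3 (-0.116). Ckm was also lowest there, at 0.898 CPM. The part of muscle in the Cox7a1 level was not tested.

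**Figure D5:**
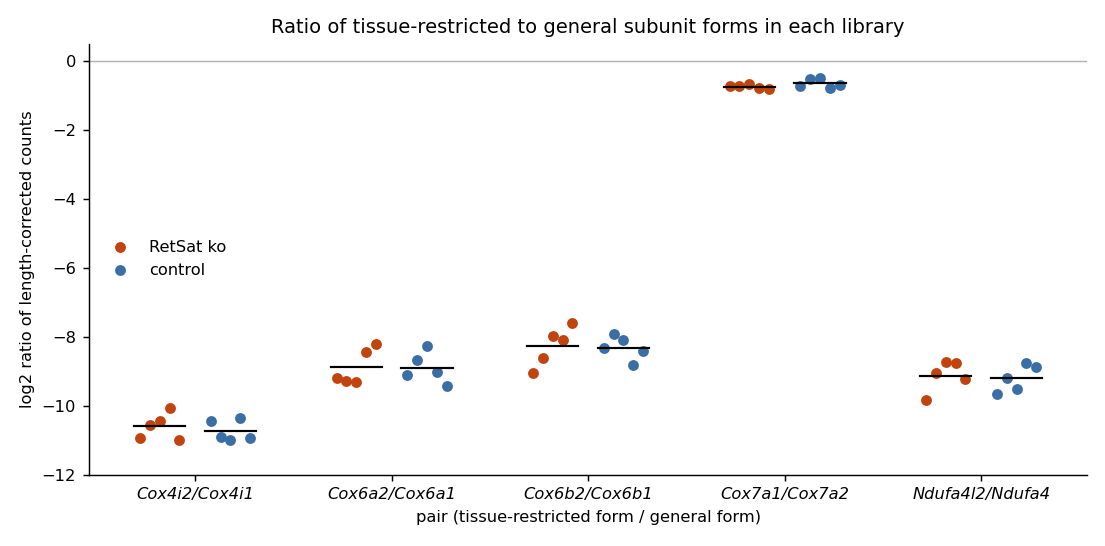
Log2 ratio of length-corrected counts of the tissue-restricted over the general form in each library, RetSat ko left of control for each pair, with group means as black lines. Only Cox7a1/Cox7a2 lies near 0 (-0.81 to -0.49), and the groups overlap in all 5 pairs.

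Assembly factors, which help to build the complexes and are not members, were followed from lists. Of 20 tested factors of complex I, 17 were positive (median 0.11), against 53.9% of all tested genes. At an unadjusted p under 0.05 in edgeR 5 were higher, against 6.79% of all tested genes, and 0 passed the adjusted threshold. In 4 all RetSat ko libraries lay above all control libraries, against 1.58% of tested genes. Dmac1, needed for the distal membrane arm in human cells, was at 24.3 ± 0.999 CPM in RetSat ko and 20.5 ± 1.12 CPM in control (SD, n = 5 each), with no overlap. Its log2 fold change was 0.25 ± 0.0616 (edgeR adjusted p = 0.291). DESeq2 gave it an adjusted p of 0.0351, in a fit where 0.659% of all tested genes passed. From edgeR without RetSat ko 1 it was 0.0398, where 4.45% passed. Ndufaf5, a hydroxylase of Ndufs7 in human cells, had 0.29 (edgeR adjusted p = 0.291).

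Of 26 tested factors of complex IV, 21 were positive (median 0.088) and 0 were called. At an unadjusted p under 0.05, 5 were higher, against 6.79% of all tested genes. In 3 all RetSat ko libraries lay above all control libraries, against 1.58% of tested genes. Cmc2 was at 13.9 ± 1.36 CPM in RetSat ko and 11.0 ± 0.762 CPM in control (SD, n = 5 each), again with no overlap. Its log2 fold change was 0.34 ± 0.0857 (edgeR adjusted p = 0.291). DESeq2 gave it an adjusted p of 0.0459, in a fit where 0.659% of all tested genes passed. Cox14, which acts in the making of the mitochondrial subunit 1, had 0.23 (edgeR adjusted p = 0.291). Of 10 factors of complexes II and III 7 were positive (median 0.071). Among them, Uqcc2 and Sdhaf1 had 0.19 and 0.23 (edgeR adjusted p = 0.368 and 0.429). All 4 tested factors of complex V were positive (median 0.054), with Tmem242 at 0.17 and Tmem70 at 0.09 (edgeR adjusted p = 0.323 and 0.592).

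The partners of the chain had members on both sides of 0. Of 21 genes for electron carriers and ubiquinone synthesis 9 were positive (median -0.004). Cycs, cytochrome c, averaged 183.0 CPM in RetSat ko and 184.7 CPM in control, and Cyc1, cytochrome c1 of complex III, which the symbol pattern does not take in, 647.9 CPM in RetSat ko and 640.5 CPM in control. The ubiquinone synthesis genes Coq3 and Coq2 had log2 fold changes of 0.17 and 0.11 (edgeR adjusted p = 0.388 and 0.44). Of 18 genes of the citric acid cycle and pyruvate dehydrogenase 5 were positive (median -0.044), and none had an unadjusted p under 0.05 in edgeR. Ogdh averaged 1147.1 ± 160.7 CPM in RetSat ko and 1353.8 ± 139.7 CPM in control (SD, n = 5 each), with a log2 fold change of -0.24 ± 0.117 (edgeR adjusted p = 0.429). Of 9 tested carriers and outer membrane genes 3 were positive (median -0.059), with Ucp2, of the uncoupling protein family, at -0.17 and Slc25a4, an ADP/ATP carrier, at 0.29 (edgeR adjusted p = 0.428 and 0.581).

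Of the 13 subunits encoded in mitochondrial DNA 10 were tested, and 9 of these were positive (median 0.103) with 0 at an unadjusted p under 0.05. Their summed level was 19349.7, 16550.0, 18571.6, 11549.0 and 12983.7 CPM in RetSat ko 1 to 5 and 15208.9, 16042.8, 18453.7, 11669.1 and 12656.7 CPM in control 1 to 5. RetSat ko 4 and control 4 were the lowest of their groups, and the groups overlapped. The 2 with the smallest p were mt-Nd3 and mt-Nd4, with log2 fold changes of 0.19 and 0.16 (edgeR adjusted p = 0.672 and 0.747). In these files mt-Co2, mt-Atp6 and mt-Atp8 had at most 14 counts in any library, so levels were not compared between mitochondrial genes.

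Among 15 transcription factors and coactivators of mitochondrial genes 9 were positive (median 0.019) and 0 were called. At an unadjusted p under 0.05, 2 were higher and 3 lower, against 6.79% and 5.45% of all tested genes. Nrf1, Gabpa and Yy1, whose motifs were searched for, had log2 fold changes of 0.02, -0.20 and -0.07 (edgeR adjusted p = 0.913, 0.364 and 0.68). Ppargc1a, the coactivator PGC-1 alpha, averaged 41.8 CPM in RetSat ko and 52.4 CPM in control, a log2 fold change of -0.33 (edgeR adjusted p = 0.355). Myc, a growth factor-induced regulator that is also a crypt gene, was at 13.6, 20.9, 15.9, 18.3 and 22.0 CPM in RetSat ko 1 to 5, against 14.1, 9.88, 14.8, 13.4 and 13.9 CPM in control 1 to 5. RetSat ko 2 to 5 were above every control library, and RetSat ko 1 was among them. The log2 fold changes of Myc and Pprc1, a coactivator related to PGC-1 alpha, were 0.46 ± 0.142 and 0.34 ± 0.126 (edgeR adjusted p = 0.3 and 0.331). Without RetSat ko 1, edgeR gave 0.545 and 0.45 with adjusted p of 0.041 and 0.0262, where 4.45% of all tested genes passed.

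Of 14 genes for transcription and upkeep of mitochondrial DNA 10 were positive (median 0.109) and 0 were called. At an unadjusted p under 0.05, 2 were higher and 1 lower, against 6.79% and 5.45% of all tested genes. Ssbp1, the single-strand binding protein, averaged 18.9 ± 1.26 CPM in RetSat ko and 15.6 ± 1.51 CPM in control (SD, n = 5 each), and Polg2, a polymerase subunit, had a log2 fold change of -0.21 (edgeR adjusted p = 0.291 and 0.307).

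Markers of the cell types of jejunum were read in the same libraries. All 16 enterocyte markers, the defining genes of the tissue's main cell type, were present and had negative log2 fold changes (median -0.323). At an unadjusted p under 0.05 in edgeR 7 of these markers were lower, against 5.45% of all tested genes. Their summed level was 81659.8, 53928.9, 56915.4, 57066.7 and 58921.5 CPM in RetSat ko 1 to 5, and 80653.2, 66085.3, 90993.6, 58957.7 and 73069.9 CPM in control 1 to 5. RetSat ko 2 to 5 lay below every control library, and RetSat ko 1 lay above all but control 3. All 16 crypt and cell cycle markers were positive (median 0.297), with 8 higher at an unadjusted p under 0.05, against 6.79% of all tested genes. They summed to 950.0, 1366.6, 1280.2, 1201.5 and 1337.0 CPM in RetSat ko 1 to 5 and 1111.8, 1062.1, 920.2, 902.2 and 1133.0 CPM in control 1 to 5. RetSat ko 2 to 5 were above every control library here, and RetSat ko 1 was among them. Without RetSat ko 1, edgeR called 4 of the 16 enterocyte markers lower (median -0.433). It called 9 of the 16 crypt and cell cycle markers higher (median 0.356), against 4.45% of all tested genes in either direction. All 9 Paneth markers were positive (median 0.831), as were all 7 enteroendocrine markers (median 0.143), all 7 smooth muscle markers (median 0.263) and 5 of 7 tested pericyte and endothelial markers (median 0.122). Of the goblet markers 1 of 7 was positive (median -0.05), and of the tuft markers 0 of 7 (median -0.187). With all libraries none of these was called in edgeR.

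Acinar transcripts, which are of pancreas, summed to 403.0, 2335.3, 0.986, 10.7 and 0.765 CPM in RetSat ko 1 to 5, and to 1.13, 0.468, 0.28, 99.1 and 210.2 CPM in control 1 to 5. All 8 tested acinar markers were positive (median 3.326). Of the adipocyte markers 6 of 7 were positive (median 2.106), with Retn, Adipoq and Lep at 0 in some libraries. Their sum was 129.7 to 234.3 CPM in RetSat ko and 132.9 to 258.4 CPM in control, mostly from the negative one, Cidec (158.4 CPM in RetSat ko and 175.9 CPM in control). Their median log2 CPM, each set against its mean over the libraries, was -1.487, -0.471, 1.953, 2.132 and 2.693 in RetSat ko 1 to 5 and -1.499, 0.002, 0.743, -1.552 and -1.211 in control 1 to 5. RetSat ko 3 to 5 were above every control library. B cell and plasma cell markers summed to 567.5 to 1041.3 CPM in RetSat ko and 433.3 to 1144.4 CPM in control, and all 7 tested were positive (median 0.932). Brown adipocyte markers reached 34.2 to 54.8 CPM in RetSat ko and 42.1 to 59.1 CPM in control, mostly from Ppargc1a, with 2 of 3 tested markers positive (median 0.456). The mean log2 CPM of the B cell and plasma cell markers, from raw totals and each set against its mean over the libraries, exceeded 1 in RetSat ko 2 (2.69), RetSat ko 3 (1.46) and control 4 (1.83). Without these B cell-rich libraries the members' median was 0.056 with 65 positive. The part of these other cell types in the values of the subunit genes was not tested.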

How the data were processed

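The authors deposited 1 file per library, with raw read counts by gene. The submitters' processing notes name Trimmomatic for trimming, STAR for alignment and the build GRCm39 (mm39). Counting, per the file headers, used featureCounts v2.0.1 over exons grouped by gene of GENCODE release M28. Each read went to the gene with the largest overlap, and no option for strand, read pairs or several alignments was set. Overlapping genes on opposite strands and near-identical copies are therefore uncertain. By blastn 2.17.0, 33 of the 81 members share at least 100 bases at 95% identity with another gene, over at least 50% of the transcript for 12. Whether reads were paired is not given in the sources used, and if they were, a fragment can count more than 1 time.

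Symbols were matched for 52081 of 55414 identifiers (94.0%). Coding lengths, gene types and transcripts came from GENCODE M21, of an older build, so coordinates of genes are those of the files. TPM used the exon length in the files. RetSat ko and control (5 libraries each, grouped by title) were compared with edgeR 4.0.16 in R 4.3.3 (filterByExpr, TMM, robust quasi-likelihood F-test, no covariate), and p-values were adjusted by Benjamini-Hochberg over 18654 tested genes (threshold 0.05). The SE of an edgeR log2 fold change was worked out as its absolute value divided by the square root of the F statistic. Ratios of subunit forms were tested by exact permutation (two-sided), on counts with 0.5 added. Tried as alternatives were RLE or upper-quartile factors, no filter, 1 CPM in 5 libraries, DESeq2 1.42.0, limma 3.58.1 voom with and without sample weights, the replicate number as a block, and leaving out each library. Raw library totals, and fits without the acinar-rich libraries (markers summing to over 50 CPM) or without the B cell-rich libraries (mean centred log2 CPM of markers over 1), were chosen after seeing the data. The fits were tested on simulated counts with changes larger than those of the members and without shifts of whole libraries. That test does not cover changes as small as those of the members.

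The members and lists were chosen with earlier results of these data known, so they get no test of their own. The named genes are, of complexes I, III, IV and V, the 4 with the smallest p and the 2 with the highest TPM, all of complex II, the subunit pairs, and 2 of each other list, where marker lists are given by counts and sums only. Some genes that this rule takes in are not reported here. Ndufs1, Uqcrb, Cyc1, Cycs and other genes named outside this rule, the core and accessory roles, and the 4 printed promoters were chosen after their values were seen. Total counts of 102844680 to 128730695 per library leave the spread between libraries, not counting error, as the limit for all but a few members.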

Additional observations from a re-analysis of the deposited data

Results flagged for a closer look

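In 5 of 92 groups of 5 libraries tested, 1 library was far from the others, its gap to the nearest exceeding 0.71 of the group's range (Dixon's 95% value). Chance flags about 1 group in 20. Among RetSat ko libraries, RetSat ko 1 was far above the rest for Sdhb (482.6 CPM), for the summed level of complex II (2805.8 CPM) and for that of complex V (11729.8 CPM). The highest RetSat ko library for Retsat itself was RetSat ko 5 (33.4 CPM). Among control libraries, control 4 was far below the rest for Sdhd (529.1 CPM).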

How the results depend on the processing

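No member was called in any of the fits run, and the members' median log2 fold change was positive in all of them. Members positive numbered 59 to 80, except 45 without the acinar-rich libraries. Members higher at an unadjusted p under 0.05 numbered 6 in the reported fit, against 6.79% of all tested genes. They numbered 21 with upper-quartile factors (7.75% of all tested genes), 10 with limma-voom (6.73%) and 1 with its sample weights (10.9%). With the filter of 1 CPM (79 tested) there were 11 (7.87%), and with raw library totals 57 (12.1%). There were 0 without the acinar-rich libraries (7.97%) and 0 without those rich in B cell transcripts (2.29%). Leaving out 1 library gave 0 to 20, against 4.52 to 11.4% of all tested genes. Members lower at that p numbered 1 with sample weights and 0 to 1 with 1 library left out. Over all tested genes, same-numbered libraries did not resemble each other (correlations -0.149 to 0.00212, none best with its own number). Mitochondrially encoded subunits, however, had their lowest sums in replicates 4 and 5 of both groups. These sums were 11549.0 and 12983.7 CPM in RetSat ko and 11669.1 and 12656.7 CPM in control. A batch shared by same-numbered libraries was not tested. With the replicate block 10 members were higher at that p, against 5.31% of all tested genes.

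With raw library totals the median was 0.193 for all members, 0.08 for complex II and 0.155 for complex V. The summed CPM was then 2395.8 higher in RetSat ko than in control. Without the acinar-rich libraries the median was 0.014 for complex I (20 of 35 positive) and 0.013 for complex III (4 of 8). It was 0.03 for complex IV (13 of 17), -0.008 for complex V (8 of 17) and -0.09 for complex II (0 of 4). The log2 fold change turned in 26 members without the acinar-rich libraries (0.003 to 0.12 in the reported fit), 12 with sample weights, 10 without the B cell-rich libraries, 9 with raw totals, 0 to 4 with the other settings and 2 to 10 with 1 library left out. Those named, with 2 mitochondrial genes and 4 ratios of subunit forms, follow, and none passed the adjusted threshold. With raw totals Sdhb was 0.061, Uqcrfs1 0.079, Atp5a1 0.027, Atp5b 0.016 and Cox7a1 0.085. With upper-quartile factors Uqcrfs1 was 0.01 and Cox7a1 0.008, and Sdhc was -0.004 with RLE factors and with DESeq2. With sample weights Ndufa1 was -0.02, Sdhd -0.019, Sdhc -0.043 and Cox6a1 -0.003. Without the acinar-rich libraries Ndufa1 was -0.073, Sdhd -0.079, Sdhc -0.072, Cox6a1 -0.031, Cox6b1 -0.003, mt-Nd3 -0.131 and mt-Nd4 -0.137. Without the B cell-rich libraries Ndufa1 was -0.023, Sdhc -0.024, Cox6a1 -0.003 and mt-Nd4 -0.107.

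Leaving out 1 library moved Ndufa1 between -0.004 and 0.096, Sdhd between -0.015 and 0.088, Sdhc between -0.037 and 0.025, Uqcrfs1 between -0.102 and 0.04, Cox6a2 between -0.071 and 0.263 and Cox7a1 between -0.077 and 0.039. The difference in log2 ratio ranged from -0.01 to 0.22 for Cox4i2 to Cox4i1, from -0.155 to 0.176 for Cox6a2 to Cox6a1, from -0.117 to 0.243 for Cox6b2 to Cox6b1 and from -0.04 to 0.253 for Ndufa4l2 to Ndufa4. Retsat kept its log2 fold change without the acinar-rich libraries (-4.51) with an edgeR adjusted p of 0.0918, from 3 against 3 libraries. The causes were not tested. The spread between libraries limits these comparisons, since most members differed by less than 0.2 on the log2 scale.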
